A study of Mus musculus with 6 samples.

Results

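Interferon-stimulated genes are genes that cells switch on when an interferon binds its receptor. Type I interferons act through the kinases JAK1 and TYK2 on a transcription factor complex that holds STAT2 and IRF9 and binds interferon-stimulated response elements in promoters. Interferon gamma acts through JAK1 and JAK2 on factors that bind gamma-activated sites, and many of the genes answer both routes. Their products include antiviral effectors, RNA sensors, transcription factors of the same pathway and feedback inhibitors, and many tissues keep a low level of them without infection. The 31 genes described here were chosen by symbol from the 52636 gene IDs of the table, and all 31 were found. Of these, 27 were taken as type I-type genes and 4 as gamma-type genes, which are the transcription factor gene Irf1 and the guanylate-binding protein genes Gbp2, Gbp3 and Gbp7.

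The cells came from the thoracic oesophagus of Krt5-CreERT2:R26SmoM2/EYFP mice and had been sorted as EpCAM high, EpCAM being a surface protein of epithelial cells. In these mice the Krt5 promoter drives a tamoxifen-inducible Cre, so that basal keratinocytes and their progeny carry SmoM2, an active form of Smoothened that turns on Hedgehog signalling. There were 3 libraries from mice that drank 0.6 g per l ibuprofen, a cyclooxygenase inhibitor, and 3 libraries from mice left untreated. All were taken 12 weeks after tamoxifen, and both groups carry the same alleles, so the comparison holds ibuprofen only, on a SmoM2 background. The labels do not say whether each library is 1 mouse or a pool, and p-values therefore measure the spread between these libraries. Library codes differ between the groups and are shared within them, so a batch marked by them and the treatment cannot be told apart.

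Values are in CPM, the read counts of genes scaled to the same fixed total in every library. Estimated reads assigned to genes were 7702557 to 8764382 in ibuprofen libraries and 6361311 to 8739163 in untreated libraries, and 1 read was worth 0.114 to 0.157 CPM. A gene listed at 0 could still have an expected count of 3 reads, which is 0.342 to 0.472 CPM, and such limits cover counting error only. Epcam averaged 259 ± 22.7 CPM with ibuprofen and 261 ± 26 CPM untreated (SD, n = 3 each), and Krt5, a keratin gene of basal cells, averaged 2881 ± 225 and 3615 ± 439 CPM in the same order. The leukocyte gene Ptprc stayed at or below 0.25 CPM in all 6 libraries. High Epcam and Krt5 with Ptprc near 0 match the label of sorted epithelial cells. Of 7 epithelial markers, these 2 among them, 6 had negative and 1 positive fold changes with ibuprofen, and 0 were called. The 7 summed to 8022, 9291 and 8509 CPM in ibuprofen replicates 1, 2 and 3. In untreated replicates 1, 2 and 3 they summed to 10533, 11004 and 9861 CPM.

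In both groups Irf1 was the best expressed gene of the set, most other transcription factor and sensor genes were at moderate levels, and most antiviral effectors were low. Because long genes collect more reads, levels of different genes were set side by side as CPM per kb of exon. Irf1, an interferon- and NF-kB-inducible transcription factor gene, averaged 31.01 CPM per kb with ibuprofen and 39.2 CPM per kb untreated. The gene lies at chr11:53770014-53778374 (GRCm38, GENCODE). Its lowest library, at 27.0 CPM per kb, lay above the highest library of any other member, which was Ifi27l2a at 17.4 CPM per kb. Ifi27l2a, a small interferon-inducible gene, ranged over 2.05 to 17.4 CPM per kb and so had no fixed place in the order.

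Next came Ifi35 (4.6 to 6.97 CPM per kb), Irf9 (4.17 to 6.49) and Stat2 (3.88 to 5.46), whose ranges overlapped and whose order was not resolved. Irf9 and Stat2 encode subunits of the type I transcription factor complex. The RNA sensor genes Ddx58, which encodes RIG-I (1.77 to 3.06 CPM per kb), and Ifih1, which encodes MDA5 (1.73 to 2.84), overlapped with each other and with Irf7, the factor that amplifies interferon production (1.48 to 2.25). Usp18, Gbp2 and Bst2 averaged 1.62, 1.38 and 1.34 CPM per kb over the 6 libraries. Usp18 removes the ubiquitin-like protein ISG15 from its targets and blocks the type I receptor as feedback. Bst2 encodes tetherin, which holds budding virions at the cell surface.

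The other 20 members averaged under 1 CPM per kb, and 17 of the 20 type I-type effectors were among them. In CPM, 7 members stayed under 1 CPM in every library: Isg15, Ifit3, Ifit3b, Oasl1, Ifi44, Rsad2 and Cmpk2. Isg15, whose product is attached to proteins like ubiquitin, had 0.999, 0.3 and 0.35 CPM in ibuprofen replicates 1, 2 and 3, against 0.65, 0.15 and 0.25 CPM in untreated replicates 1, 2 and 3. Those values stand for 8, 2 and 3 estimated reads with ibuprofen and 4, 1 and 2 untreated. Ifit3 was read once in ibuprofen replicate 1 and once in untreated replicate 1, and Ifit3b once in untreated replicate 3. Such values lie at the counting limit, and differences between groups were not detectable at this depth.

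**Figure D1:**
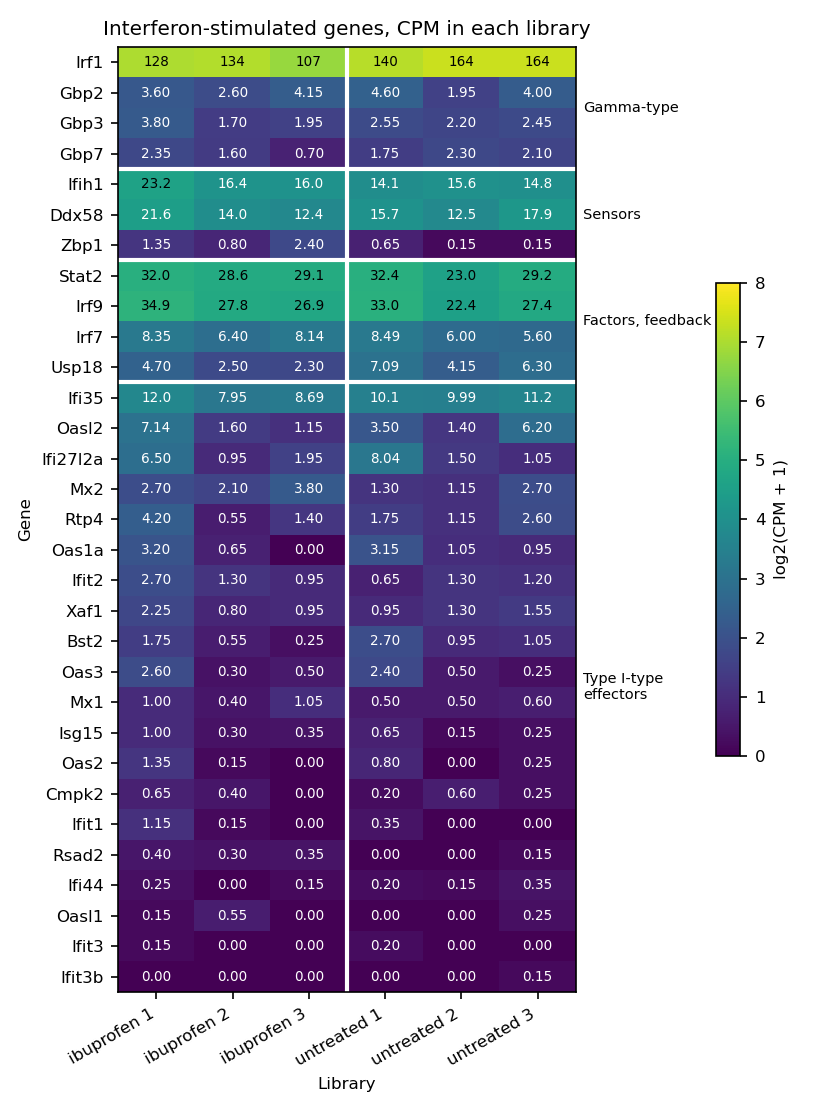
Heat map of the 31 interferon-stimulated genes (rows, grouped by role) in the 3 ibuprofen and 3 untreated libraries (columns). Colour gives log2(CPM + 1) and the printed numbers give CPM. Irf1 is above 100 CPM in all 6 libraries, while 7 effector genes stay under 1 CPM in all of them, and ibuprofen replicate 1 is the brightest column for many effectors.

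Some members share sequence, which limits their values. Of the 50-base stretches of Ifit3 transcripts, 51.2% also occur in its neighbour Ifit3b, and 57.6% of those of Oas1a occur in Oas1g, so that reads could be split or lost between the copies. The share was 45% for Ifit3b and at most 12.7% for the remaining members, the highest being Gbp7. Irf1 exons overlap those of Gm17334 on the opposite strand by 135 bases, 3.4% of the exon length, and Gm17334 itself averaged 22.1 CPM. Ifi35 shares 16.8% of its exon length with Gm11626 on the opposite strand, and whether counting used the strand is not given in the sources used here.

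Many promoters of the members held motifs of the pathway, also where the gene was read only a few times. RefSeq promoters (GRCm38.p6, 250 bases before to 50 bases after the annotated start) were found for 24 of the 31 members, in 28 promoters, and not for Ifi27l2a, Mx1, Mx2, Oas2, Rtp4, Usp18 and Zbp1. The response element core, GAAA followed by 2 bases of any kind and GAAA, was searched on both strands. It was present in 14 of the 28, or 50%, and in 3.44% of all 32851 promoters of the same length. The gamma-activated site core TTCNNNGAA, which reads the same on both strands, was present in 6 of the 28, or 21.4%, and in 8.3% of all promoters. No match of either kind was found for Irf7, Irf9, Oasl1, Oasl2, Ifi44, Xaf1 and Cmpk2, which had promoters. The matches describe letters in a window and do not show that a factor binds there.

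The windows below hold the 200 bases before the annotated start, 5′ to 3′ on the gene's strand, with matches in capitals. They were picked from members with a match. They run from Irf1, rank 1 of the 31 in mean CPM per kb, to Ifit3b, rank 31. Members of rank 2 to 9 are not shown. Irf1 at chr11:53769814-53770013 (plus strand), the most abundant member, had a gamma-activated site core and no response element core. Gbp2 at chr3:142620463-142620662 (plus strand) had a response element core, and Gbp7 at chr3:142530136-142530335 (plus strand) had both kinds.
Irf1: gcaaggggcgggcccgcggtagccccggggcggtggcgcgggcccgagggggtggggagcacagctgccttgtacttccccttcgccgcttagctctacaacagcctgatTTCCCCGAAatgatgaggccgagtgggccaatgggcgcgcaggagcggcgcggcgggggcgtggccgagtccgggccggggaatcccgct
Gbp2: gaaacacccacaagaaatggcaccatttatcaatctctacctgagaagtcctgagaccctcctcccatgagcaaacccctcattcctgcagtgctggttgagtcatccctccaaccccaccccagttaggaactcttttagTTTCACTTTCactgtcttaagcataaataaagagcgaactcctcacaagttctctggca
Gbp7: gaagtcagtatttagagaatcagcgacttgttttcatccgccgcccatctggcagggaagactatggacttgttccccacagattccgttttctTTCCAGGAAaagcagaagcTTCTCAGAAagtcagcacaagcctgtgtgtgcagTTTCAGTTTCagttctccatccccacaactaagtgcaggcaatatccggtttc
Isg15 at chr4:156200819-156201018 (minus strand) had 3 response element cores that overlap, the first beginning 78 bases before the start, and Ifit1 at chr19:34640689-34640888 (plus strand) had 2. Isg15 averaged 0.595 CPM per kb over the 6 libraries, rank 16 of the 31, and Ifit1 0.103 CPM per kb, rank 24.
Isg15: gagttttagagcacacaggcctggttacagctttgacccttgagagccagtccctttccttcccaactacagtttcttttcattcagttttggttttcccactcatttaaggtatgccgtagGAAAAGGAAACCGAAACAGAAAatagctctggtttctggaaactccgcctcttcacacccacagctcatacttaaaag
Ifit1: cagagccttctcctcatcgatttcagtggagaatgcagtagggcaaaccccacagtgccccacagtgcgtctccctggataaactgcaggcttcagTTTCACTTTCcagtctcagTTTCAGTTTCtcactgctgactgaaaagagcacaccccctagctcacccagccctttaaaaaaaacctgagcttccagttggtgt
Ifit3 at chr19:34583329-34583528 and Ifit3b at chr19:34607757-34607956 (both plus strand) are shown because they are near copies. Their 300-base promoters were 94.2% identical over 274 aligned columns, and both held 2 response element cores.
Ifit3: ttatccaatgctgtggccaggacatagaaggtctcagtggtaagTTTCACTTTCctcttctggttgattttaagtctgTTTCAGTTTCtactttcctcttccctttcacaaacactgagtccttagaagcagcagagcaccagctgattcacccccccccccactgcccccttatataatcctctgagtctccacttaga
Ifit3b: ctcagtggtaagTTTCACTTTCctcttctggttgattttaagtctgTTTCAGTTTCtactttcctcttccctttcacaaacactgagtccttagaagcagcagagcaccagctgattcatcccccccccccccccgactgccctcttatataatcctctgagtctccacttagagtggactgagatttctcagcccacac

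**Figure D2:**
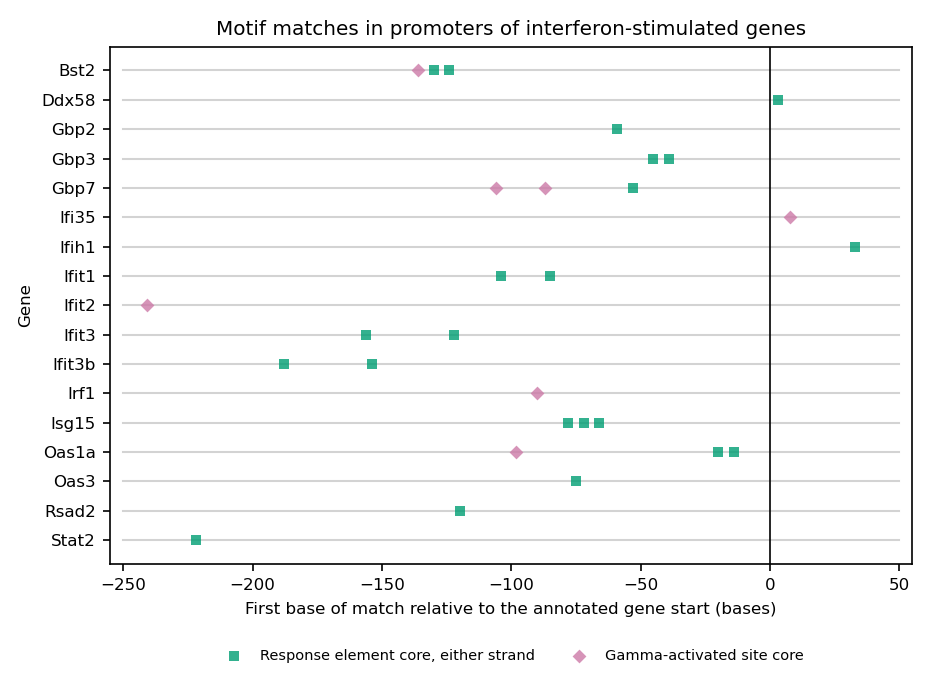
Positions of the response element core (squares) and the gamma-activated site core (diamonds) in member promoters, in bases from the annotated gene start, for members with at least 1 match. Most matches lie before the start, and Irf1 has only the gamma-activated site core, which begins 90 bases before its start.

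The comparison asked whether type I-type and gamma-type genes differed between mice given ibuprofen and untreated mice. No member passed the test. The test was limma on log2(CPM + 1), for genes that reached 1 CPM in 3 or more libraries. Calls needed a p under 0.05 after Benjamini-Hochberg adjustment across the 16684 genes tested. This left 19 members, 15 type I-type and all 4 gamma-type, while 11 effectors and the sensor gene Zbp1 were too low. No tested member owed its place to libraries of 1 group only. Called members numbered 0 of 19, against 0.521% of all tested genes, which are 87 genes (50 or 0.3% higher and 37 or 0.222% lower, but 33 higher and 41 lower with TMM scaling). The count over all genes was 23 without ibuprofen replicate 1, 44 without ibuprofen replicate 3, 4 without untreated replicate 1, 5 without untreated replicate 2 and 456 without untreated replicate 3, and the count of members was 0 each time. At an unadjusted limma p under 0.05, 2 of the 19 members were lower and 0 higher, against 6.17% lower and 11.8% higher among all tested genes.

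The type I-type subset was centred on no change, with a median log2 fold change of -0.001 over 15 genes, 7 positive and 8 negative. The gamma-type subset had a median of -0.16 over 4 genes, 1 positive and 3 negative. The median over all tested genes was 0.04. Because members are not replicates, the gap between the subsets has no test. The gamma-type median lies midway between Gbp7 (-0.31), a gene of low CPM, and Gbp3 (-0.01). Irf1 was at -0.34 and Gbp2 at 0.02. Values here are log2 differences, ibuprofen minus untreated, which understate the change of low genes.

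**Figure D3:**
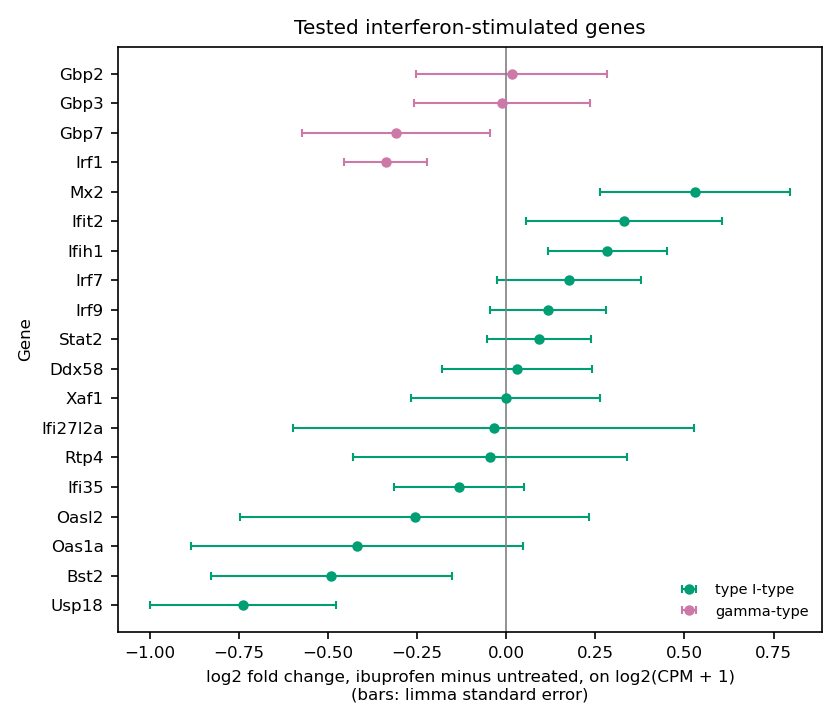
Log2 fold change (ibuprofen minus untreated, on log2(CPM + 1)) of the 19 tested members, with limma standard errors as bars. Values run from -0.74 for Usp18 to 0.53 for Mx2, and none passed the adjusted threshold.

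Irf1, the most abundant gamma-type gene, had 128, 134 and 107 CPM in ibuprofen replicates 1, 2 and 3, against 140, 164 and 164 CPM in untreated replicates 1, 2 and 3. All ibuprofen libraries lay below all untreated ones, a separation that 8.73% of all tested genes also showed in that direction. The log2 fold change was -0.34 ± 0.12 (SE, 95% interval -0.6 to -0.08), with a limma adjusted p of 0.182. With library weights the limma adjusted p was 0.0211, in a fit that called 2462 of the 16684 tested genes, against 87 in the main fit.

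The guanylate-binding proteins are GTPases that attack pathogen compartments. Gbp2 had 3.6, 2.6 and 4.15 CPM in ibuprofen replicates 1, 2 and 3, against 4.6, 1.95 and 4 CPM in untreated replicates 1, 2 and 3. Gbp3 had 3.8, 1.7 and 1.95 CPM with ibuprofen, against 2.55, 2.2 and 2.45 CPM untreated. Gbp7 had 2.35, 1.6 and 0.699 CPM with ibuprofen, against 1.75, 2.3 and 2.1 CPM untreated. The groups overlapped for each of these 3 neighbours on chromosome 3. Their log2 fold changes were 0.02 ± 0.27, -0.01 ± 0.25 and -0.31 ± 0.26, with limma adjusted p of 0.981, 0.984 and 0.553. The sign for Gbp2 turned negative under 7 alternatives, TMM scaling and GC correction among them.

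Of the factors of the type I route none had groups that stood apart. Stat2 had 32, 28.6 and 29.1 CPM in ibuprofen replicates 1, 2 and 3, against 32.4, 23 and 29.2 CPM in untreated replicates 1, 2 and 3 (log2 fold change 0.09 ± 0.15, limma adjusted p = 0.764). Irf9 had 34.9, 27.8 and 26.9 CPM with ibuprofen, against 33, 22.4 and 27.4 CPM untreated (0.12 ± 0.16). Both genes were lowest in untreated replicate 2, and without that library their log2 fold changes were -0.04 and -0.02. Irf7 averaged 7.63 ± 1.07 CPM with ibuprofen and 6.7 ± 1.57 CPM untreated (SD, n = 3 each).

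Usp18, the feedback gene at chr6:121245906-121270917 (GRCm38), had the most negative fold change on this scale, though Oas1a was lower at pseudocount 0.25 (-0.92, against -0.87 for Usp18). It had 4.7, 2.5 and 2.3 CPM in ibuprofen replicates 1, 2 and 3, against 7.1, 4.15 and 6.3 CPM in untreated replicates 1, 2 and 3. Only ibuprofen replicate 1 reached into the untreated range. The log2 fold change was -0.74 ± 0.26 (95% interval -1.31 to -0.16), with a limma adjusted p of 0.19, and the values rest on 19 to 54 estimated reads per library.

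The sensor genes bind viral RNA in the cytosol. Ifih1, at chr2:62595798-62646255 (GRCm38), had 23.2, 16.4 and 16 CPM in ibuprofen replicates 1, 2 and 3, against 14.1, 15.6 and 14.8 CPM in untreated replicates 1, 2 and 3. Its groups did not overlap, as was the case for 14.2% of all tested genes with ibuprofen above, but the gap between the nearest libraries was small. The log2 fold change was 0.28 ± 0.17 with a limma adjusted p of 0.39. Ddx58 had 21.6, 14 and 12.4 CPM with ibuprofen, against 15.7, 12.5 and 17.9 CPM untreated, which overlapped, and its log2 fold change of 0.03 ± 0.21 turned to -0.04 with TMM scaling and -0.06 with GC correction.

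Zbp1, which senses left-handed nucleic acid and can start necroptosis, was too low to be tested. It had 1.35, 0.799 and 2.4 CPM in ibuprofen replicates 1, 2 and 3, against 0.65, 0.15 and 0.15 CPM in untreated replicates 1, 2 and 3. The groups did not overlap, on 11, 6 and 21 estimated reads with ibuprofen and 4, 1 and 1 untreated. In the fit with no filter on low values its log2 fold change was 0.91 ± 0.26 and its limma adjusted p 0.21. Rsad2, the antiviral enzyme gene also called viperin, was the other untested member whose groups did not overlap. It had 0.4, 0.3 and 0.35 CPM with ibuprofen, against 0, 0 and 0.15 CPM untreated, which is at most 3 estimated reads in any library. Its limma adjusted p was 0.237 with no filter. Of all tested genes 14.2% had groups that did not overlap with ibuprofen above. That share was not counted for untested genes, to which Zbp1 and Rsad2 belong.

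Among the 9 tested effectors 7 had negative and 2 positive fold changes, against 7284 negative and 9400 positive among all 16684 tested genes. The 11 untested effectors are not in this count. Of the negative ones, Xaf1, Rtp4, Ifi27l2a, Oasl2 and Oas1a changed sign when certain single libraries were left out, so the split shows no direction. Mx2, a dynamin-like antiviral GTPase gene, had 2.7, 2.1 and 3.8 CPM in ibuprofen replicates 1, 2 and 3, against 1.3, 1.15 and 2.7 CPM in untreated replicates 1, 2 and 3. Untreated replicate 3 overlapped the ibuprofen group. The log2 fold change was 0.53 ± 0.27 with a limma adjusted p of 0.321. When libraries were weighted it was 0.66 with a limma adjusted p of 0.0496. That weighted fit called 2462 of the 16684 tested genes.

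Ifit2, one of the RNA-binding IFIT genes on chromosome 19, had 2.7, 1.3 and 0.949 CPM with ibuprofen, against 0.65, 1.3 and 1.2 CPM untreated (0.33 ± 0.28, limma adjusted p = 0.541). Bst2 had 1.75, 0.55 and 0.25 CPM with ibuprofen, against 2.7, 0.949 and 1.05 CPM untreated (-0.49 ± 0.34, limma adjusted p = 0.456). In both genes replicate 1 of the ibuprofen group lay well above the other ibuprofen libraries. Ifi35 was the steadiest effector, at 12, 7.95 and 8.69 CPM with ibuprofen and 10.1, 9.99 and 11.2 CPM untreated (-0.13 ± 0.18).

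The remaining tested effectors were Xaf1, Rtp4, Ifi27l2a, Oasl2 and Oas1a, with log2 fold changes between -0.42 and -0.001, each of which changed sign when certain single libraries were left out. Of the effectors not tested, Ifit1 had 1.15 CPM in ibuprofen replicate 1 and Oas2 1.35 CPM there, while both were at most 0.15 CPM in the other ibuprofen libraries. Mx1, the paralog of Mx2, averaged 0.816 CPM with ibuprofen and 0.533 CPM untreated. Over the 19 tested members, 13 had a 95% interval that stayed within 1 unit of log2(CPM + 1) on both sides. For Usp18, Mx2, Bst2, Oas1a, Oasl2 and Ifi27l2a the interval reached 1 unit. For genes of a few CPM, 1 unit is more than a 2-fold change in CPM. A 2-fold change is therefore not excluded for the low genes among the 13. Standard errors of members had a median of 0.26, against 0.17 for all tested genes.

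The spread within groups followed particular libraries. Of the 15 tested type I-type members 9, or 60%, had their highest value in ibuprofen replicate 1 and 5, or 33.3%, in untreated replicate 1. Among all tested genes 17.2% were highest in ibuprofen replicate 1 and 19.7% in untreated replicate 1. The 22 type I-type genes that are effectors, Usp18 or Zbp1 summed to 57.2, 22.3 and 26.2 CPM in ibuprofen replicates 1, 2 and 3, against 45.2, 26 and 37.4 CPM in untreated replicates 1, 2 and 3. The highest library was thus an ibuprofen one, and the lowest too.

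The oligoadenylate synthetase family on chromosome 5 is an example, whose enzymes make the signal that activates RNase L. Oas1a had 3.2, 0.65 and 0 CPM in ibuprofen replicates 1, 2 and 3, against 3.15, 1.05 and 0.949 CPM in untreated replicates 1, 2 and 3. Oas3, not tested, had 2.6, 0.3 and 0.5 CPM with ibuprofen, against 2.4, 0.5 and 0.25 CPM untreated. Oasl2 had 7.15, 1.6 and 1.15 CPM with ibuprofen, against 3.5, 1.4 and 6.2 CPM untreated. In these 3 genes ibuprofen replicate 1 was the highest, and untreated replicate 1 or 3 came next. Oas2 was also highest in ibuprofen replicate 1, at 1.35 CPM, but Oasl1 was highest in ibuprofen replicate 2, at 0.55 CPM, and had 0.15 CPM in ibuprofen replicate 1.

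Ifi27l2a had 6.5, 0.949 and 1.95 CPM in ibuprofen replicates 1, 2 and 3, against 8.04, 1.5 and 1.05 CPM in untreated replicates 1, 2 and 3, so replicate 1 was far above the others in both groups. Its log2 fold change was -0.58 without ibuprofen replicate 1 and 0.63 without untreated replicate 1. Without ibuprofen replicate 1 the type I-type median was -0.09 over 12 tested genes and the gamma-type median -0.32 over 4 genes.

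Ibuprofen replicate 1 also held the most fibroblast marker RNA, and its epithelial marker sum of 8022 CPM was the lowest. The 7 fibroblast markers, all above 0 in each library, summed to 538, 356 and 342 CPM in ibuprofen replicates 1, 2 and 3, against 332, 371 and 349 CPM in untreated replicates 1, 2 and 3. Fbln1 was the most abundant, with 393 CPM in ibuprofen replicate 1 and 258 to 306 CPM in the other libraries, and made up most of each sum. Whether its RNA came from fibroblasts was not tested. Col1a1 had 29 CPM in ibuprofen replicate 1 and 3.65 to 4.7 CPM in the other libraries. Untreated replicate 1, the other library with high effectors, had the fewest estimated reads and the lowest fibroblast sum, 275 of its 332 CPM being Fbln1. Of the less abundant markers, Col1a2 and Col3a1 were second highest in that library, at 2.7 and 6 CPM, against 15.7 and 32.2 CPM in ibuprofen replicate 1. The 7 markers as a set did not stand out there. Their mean deviation from each marker's own mean of log2(CPM + 1) was 1.218 in ibuprofen replicate 1. It was -0.033 in untreated replicate 1, within the range of -0.545 to -0.015 of the libraries other than ibuprofen replicate 1. The part of fibroblast RNA in the effector values was not tested, and in such bulk samples fewer cells of a type and less RNA per cell cannot be told apart.

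**Figure D4:**
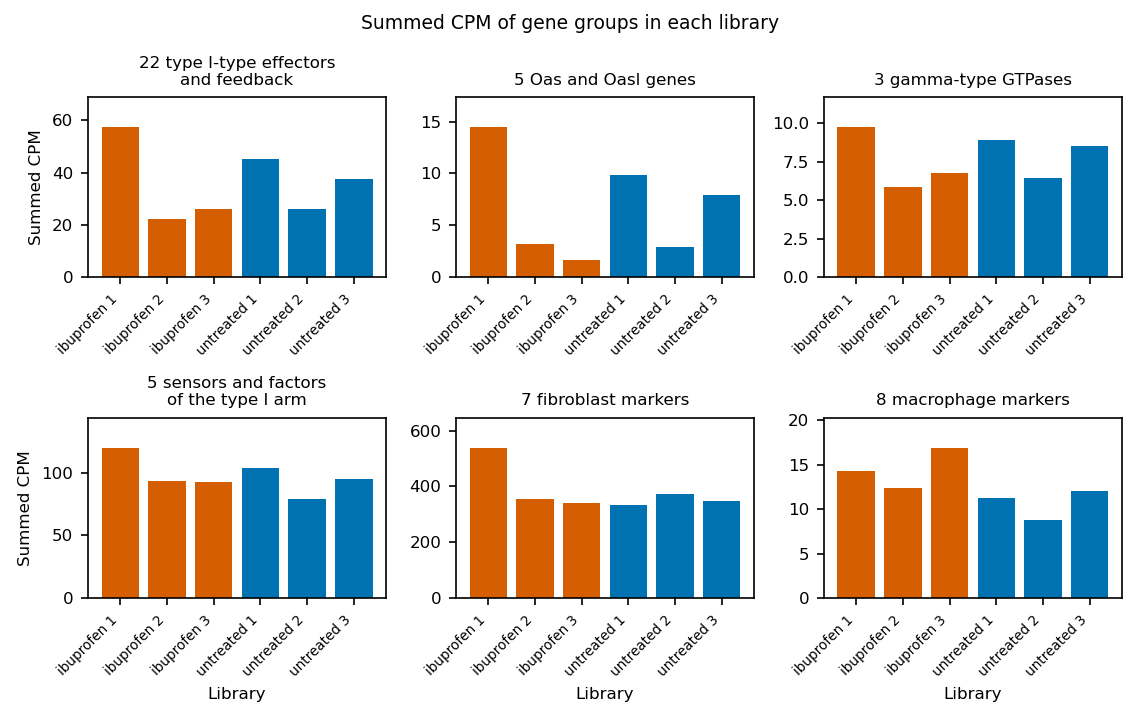
Summed CPM of 6 gene groups in the 3 ibuprofen libraries (orange) and the 3 untreated libraries (blue), each on an axis from 0. The effector and Oas sums are highest in ibuprofen replicate 1 and next in untreated replicate 1, while the sums of the 5 sensors and factors differ less between libraries, at 92.6 to 120 CPM with ibuprofen and 79.5 to 104 CPM untreated. Zbp1 is counted with the effectors, and the fibroblast sum is mostly Fbln1.

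The pathway upstream of these genes was present on the receiving side and near 0 on the ligand side. None of 21 interferon genes reached 1 CPM in any library, and 10, among them Ifnb1 and Ifng, were listed at 0 in all 6. The highest means were those of the epithelial interferon genes Ifnk (0.317 CPM with ibuprofen and 0.2 CPM untreated) and Ifne (0.167 and 0.15 CPM in the same order). They rest on at most 5 estimated reads in any library for Ifnk and at most 4 for Ifne.

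All 6 receptor genes were tested and 0 called. Those of the type I receptor were Ifnar1, with 46.1 ± 5.32 CPM with ibuprofen and 44.5 ± 5.14 CPM untreated, and Ifnar2, with 24.9 ± 4 and 19.1 ± 2.34 CPM (SD, n = 3 each; log2 fold change 0.36 ± 0.16, limma adjusted p = 0.26). For interferon gamma, Ifngr1 averaged 29.1 ± 2.63 CPM with ibuprofen and 32.2 ± 1.45 CPM untreated, and Ifngr2 16.5 ± 1.15 and 19 ± 1.61 CPM. The receptor genes for interferon lambda, Ifnlr1 and Il10rb, had log2 fold changes of -0.23 ± 0.19 and 0.26 ± 0.15.

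Of 15 genes of JAK-STAT signalling and its inhibitors, all tested, 0 were called, 7 had positive and 8 negative fold changes, and the median was -0.04. Stat3 and Socs3 were the most abundant, at 694 ± 33.1 and 328 ± 6.11 CPM with ibuprofen and 645 ± 52.3 and 337 ± 22.5 CPM untreated. The genes with the smallest p were both inhibitors. Cish had 66.3 ± 15.5 CPM with ibuprofen and 90.7 ± 7.04 CPM untreated (-0.47 ± 0.15, limma adjusted p = 0.161), and the phosphatase gene Ptpn1 100.1 ± 4.2 and 120.9 ± 13.8 CPM (-0.26 ± 0.11, adjusted p = 0.244).

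Of 14 genes that sense nucleic acids or carry their signal, 12 were tested and 0 called, with a median of 0. The adaptor gene Myd88 averaged 96.6 ± 11.8 CPM with ibuprofen and 98.4 ± 3.67 CPM untreated, and Trim25, which activates RIG-I, 86 ± 1.23 and 78.8 ± 5.5 CPM. The kinase gene Tbk1 and the RNA receptor gene Tlr3 had the smallest p, at log2 fold changes of 0.19 ± 0.12 and 0.36 ± 0.26. Tmem173, which encodes STING, the adaptor of DNA sensing, was not tested at 0.267 ± 0.029 CPM with ibuprofen and 0.55 ± 0.327 CPM untreated.

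**Figure D5:**
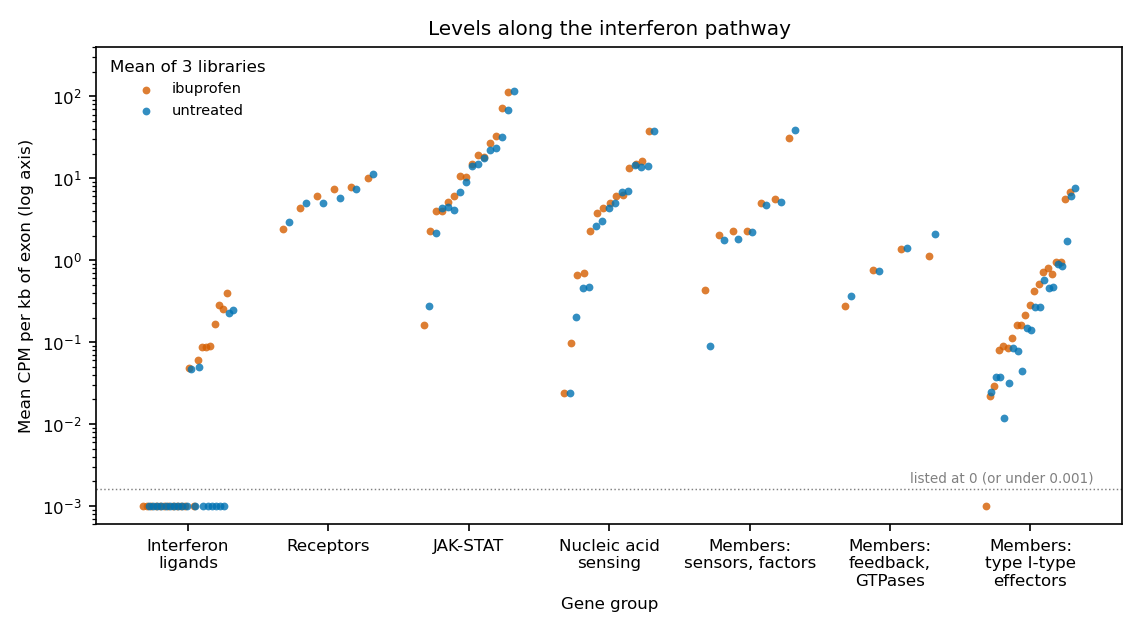
Mean CPM per kb of exon (log axis) for genes of the interferon pathway and for the members by role, with ibuprofen means in orange and untreated means in blue, n = 3 libraries each. Interferon genes lie at or near 0, receptors between 2.41 and 11.3 CPM per kb, and most type I-type effectors below 1 CPM per kb.

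Further interferon-responsive genes that are not members were counted as well. Of 43 other type I-type genes 29 were tested, 0 called, with 15 positive, 14 negative and a median of 0.02. Ifitm3, a membrane protein gene that blocks virus entry and the most abundant of them, had 171, 123 and 120 CPM in ibuprofen replicates 1, 2 and 3, against 207, 170 and 206 CPM in untreated replicates 1, 2 and 3. The lowest untreated library was just under the highest ibuprofen library, and the log2 fold change was -0.5 ± 0.14 (limma adjusted p = 0.13). Helz2 averaged 75.4 ± 4.51 CPM with ibuprofen and 92.1 ± 23 CPM untreated.

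Ifi203, a gene of the nuclear DNA-binding PYHIN family, had the widest spread. It had 10.5, 9.34 and 160 CPM in ibuprofen replicates 1, 2 and 3, against 1.9, 5.4 and 6.3 CPM in untreated replicates 1, 2 and 3. The groups did not overlap, as was the case for 14.2% of all tested genes with ibuprofen above. Ibuprofen replicate 3 was far above all other libraries (2.38 ± 0.83, limma adjusted p = 0.182).

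Of 34 other gamma-type genes 15 were tested, 0 called, with 6 positive, 9 negative and a median of -0.06. Wars, the tryptophanyl-tRNA synthetase gene, averaged 29.1 ± 2.41 CPM with ibuprofen and 38 ± 5.4 CPM untreated (-0.37 ± 0.14, limma adjusted p = 0.202). Cxcl10, a chemokine that draws T cells, averaged 7.5 ± 1.53 and 5.11 ± 2.09 CPM in the same order (0.53 ± 0.28). Tapbp and Psme1, which serve antigen presentation, were the most abundant, at log2 fold changes of -0.2 ± 0.13 and 0.04 ± 0.12. Ido1, strongly inducible by interferon gamma in many cells, was listed at 0 in all 6 libraries.

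Markers of T cells, natural killer cells, B cells, dendritic cells and neutrophils were scarce. The 10 T cell markers summed to 1.65 to 5.2 CPM with ibuprofen and 1.55 to 2.2 CPM untreated, with Trbc1 at 0 throughout, and the 4 natural killer cell markers were all at 0. The 4 B cell markers summed to 0.8 to 3.85 CPM with ibuprofen and 0.6 to 1.2 CPM untreated, with Ms4a1 at 0. The 6 dendritic cell markers summed to at most 0.4 CPM with ibuprofen and 0.6 CPM untreated, with Cd207 at 0, and the 5 neutrophil markers to at most 0.65 and 0.6 CPM, with Ly6g and Retnlg at 0.

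The 8 macrophage markers summed to 12.4 to 16.9 CPM with ibuprofen and 8.74 to 12 CPM untreated, nearly all from Cd68 and Csf1r, while the defining genes Adgre1, C1qa and C1qb were at 0. Cd68, a lysosomal membrane protein gene, averaged 8.59 ± 0.736 CPM with ibuprofen and 5.2 ± 1.39 CPM untreated (0.65 ± 0.2, limma adjusted p = 0.147). The 4 endothelial markers summed to 13.4 to 17.3 CPM with ibuprofen and 12.4 to 13.5 CPM untreated, mostly Pecam1.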

How the data were processed

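RNA sequencing of sorted oesophageal cells gave 6 libraries, 3 ibuprofen and 3 untreated. The deposited CPM values, per the file headers, are scaled per library to a fixed total. Per the submitters' processing notes, builds GRCm38 and mm10 were used, as were Cell Ranger 3.1.0, edgeR, HTSeq and STAR 2.5.3a. Their roles, the annotation release, strand setting and filters are not stated there.

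The values fall on steps that reads scaled to 20000000 and rounded up would give. Read numbers were estimated from these steps, which returned at least 99.82% of values above 0, and describe depth only. No count model was fitted.

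limma 3.58.1 in R 4.3.3 was fitted to log2(CPM + 1) with a mean-variance trend, no block and no covariate. Alternatives covered pseudocount, filter, scaling, GC content, library weights, replicate block and each library left out, and the fit was tested on simulated data. Exon lengths, positions and GC content came from GENCODE M21 (GRCm38), and promoters from RefSeq (GRCm38.p6).

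Members, subsets and gene lists were chosen with earlier results of these data known. Named members are those most abundant, most changed, gamma-type or with groups that do not overlap. From other lists, the most abundant genes and those with the smallest p are named, with all receptors. Some genes were named outside this rule, such as Tmem173, Ido1, Ifnb1, Ifng and several cell type markers. A gene of the signalling list is not reported here.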

Additional observations from a re-analysis of the deposited data

How the results depend on the processing

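Members called stayed at 0 under 14 of the 15 alternatives. With library weights the count was 2 of 19 (Mx2 higher and Irf1 lower), while the count over all genes was 2462 of 16684. Over all genes the main count of 87 was 52 with no filter, 434 with the replicate block and 270 with the replicate block and GC correction, and 4 to 456 with 1 library left out. The labels do not say that replicate numbers pair animals, so the numbers were not taken as pairs. Same-numbered libraries had correlations of 0, 0.08 and 0.153 between their deviations from group means. Libraries of different number had -0.144 to 0.097. These values do not settle whether the libraries were paired. With the replicate block 0 members were called. With 1 library left out, the subset medians ranged over -0.1 to 0.18 for type I-type genes and -0.32 to -0.07 for gamma-type genes. These type I-type medians cover 12 to 15 tested genes, so the genes differ between fits. Of the other alternatives, library weights gave the type I-type median that lay furthest from the main one, 0.24, and the filter at 5 CPM the gamma-type one, -0.34, with Irf1 the only gene left.

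Signs of uncalled members changed as follows, and the cause was not tested. With library weights the log2 fold change was 0.45 for Oasl2, 0.35 for Ifi27l2a, 0.184 for Rtp4 and 0.057 for Gbp3. At pseudocount 5 it was 0.009 for Xaf1, 0.017 for Rtp4, -0.002 for Gbp2 and 0.006 for Gbp3. With TMM scaling Ddx58 had -0.041 and Gbp2 -0.045. With GC correction, with or without the replicate block, Ddx58 had -0.06 and Gbp2 -0.073. With 1 library left out the ranges were -0.19 to 0.18 for Ddx58, -0.266 to 0.197 for Gbp2, -0.27 to 0.15 for Gbp3, -0.58 to 0.63 for Ifi27l2a, -0.018 to 0.251 for Irf9, -0.613 to 0.046 for Oas1a, -0.85 to 0.12 for Oasl2, -0.52 to 0.35 for Rtp4, -0.042 to 0.196 for Stat2 and -0.105 to 0.16 for Xaf1. Depth limits the 12 untested members, which had at most 21 estimated reads in any library.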
